A study of Mus musculus with 20 samples.

Results

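Potassium channel genes were read out in RNA sequencing of whole mouse adrenal glands. The members are the genes of the deposited table whose symbol starts with Kcn, without Kcnk3, Kcnk9, Kcnj5 and names that end in "os" or hold a hyphen. The rule used names alone and no measured value, and gave 93 of 47729 genes in 21 subfamilies, of which 91 are protein coding. The other two, Kcnmb4os1 and Kcnmb4os2, are antisense transcripts of Kcnmb4 that the rule lets through because their names end in a digit. Of the 93 members, 89 reached a value of 1 in 4 or more of the 20 libraries and were tested. Of the 4 left out, Kcna10 and Kcnk16 were at 0 in all 20 libraries, and Kcnh5 and Kcnk15 had a few reads.

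All 20 libraries carry the driver SCC::Cre in their genotype label, controls included. SCC is the usual short name of the side-chain cleavage enzyme, made in steroid-producing cells, so the label SCC::Cre_BMAL1 KO names a loss of the clock factor BMAL1 aimed at the adrenal cortex, while the gland sequenced also holds the medulla. The groups were 5 control females aged 1.5 to 3.4 months, 5 females labelled KO aged 2.4 to 3.4 months, 6 control males aged 2.9 to 4.7 months and 4 males labelled KO aged 2.9 to 3.7 months. Males were on average older than females, and the sources used here do not state the strain, the time of collection or the exons removed. The question set by the design is what inactivation of BMAL1 changes in the adrenals of each sex.

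Potassium channels let potassium leave the cell and hold the membrane at a negative voltage. In aldosterone-producing glomerulosa cells, closing them depolarises the cell and opens voltage-gated calcium channels, which drives hormone synthesis, and in chromaffin cells of the medulla they end spikes that release catecholamines. The Kcn symbols cover pore-forming subunits of the voltage-gated (Kcna to Kcnd, Kcnh, Kcnq), calcium- or sodium-activated (Kcnma, Kcnn, Kcnt), inwardly rectifying (Kcnj) and tandem-pore leak (Kcnk) classes, silent subunits that modify other pores (Kcnf, Kcng, Kcns, Kcnv), and accessory subunits (Kcnab, Kcne, Kcnip, Kcnmb).

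Recovered reads ranged from 13421985 to 26742820 per library, and values are normalised read counts. The labels do not say which animals the libraries came from, so a p-value here speaks of the spread among the libraries, part of which may be technical. Arntl, the gene of BMAL1, read 494 to 860 in control females, 833 to 1010 in females labelled KO, 365 to 1092 in control males and 841 to 995 in males labelled KO. Its whole-gene count was thus not lower in the libraries labelled KO. Such a count also takes in exons that a deletion would leave, so it checks nothing, and every genotype direction below rests on the labels. Cry1, a clock repressor, did not overlap between genotypes in either sex (207 to 237 against 1597 to 2137 in females, 122 to 213 against 1140 to 1423 in males). All 15 chromaffin markers and all 8 glomerulosa markers were detected at a mean of at least 10, whereas all 6 kidney markers had a mean under 10, with Umod and Slc34a1 at 0 in every library.

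The promoters of the 2 genes called lower in females labelled KO are shown first. They differ in the E-box, a motif that CLOCK and BMAL1 bind. Windows of 300 bases (250 before to 50 after the start, RefSeq, GRCm38.p6) were matched for 69 member genes and searched for CACGTG, the canonical E-box, which reads the same on both strands. It was present in 6 of the 69 genes (8.70%), namely Kcnab1, Kcne4, Kcnh4, Kcnj2, Kcnk5 and Kcnn4, against 8.09% of all 27025 genes with a window. The 250 bases before the start are printed 5′ to 3′ for Kcnj2 (chr11:111065914-111066163, plus strand), with the motif at base 167 in capitals, and for Kcnk1 (chr8:125994852-125995101, plus strand), which has no match. The starts used here are those of RefSeq. The printed stretch of Kcnj2 ends next to its GENCODE gene start given below, whereas that of Kcnk1 ends short of its own. The 2 stretches are thus not aligned to the same kind of start. Of the 6 genes with a match, Kcnj2 alone was called by genotype in limma. A match describes the letters only, no binding was measured here, and whether the motif bears on any difference was not tested.
Kcnj2: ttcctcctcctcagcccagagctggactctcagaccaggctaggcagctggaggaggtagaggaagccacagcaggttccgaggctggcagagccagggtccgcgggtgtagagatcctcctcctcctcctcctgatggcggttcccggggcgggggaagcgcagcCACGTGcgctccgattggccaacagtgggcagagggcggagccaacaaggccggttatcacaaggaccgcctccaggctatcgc
Kcnk1: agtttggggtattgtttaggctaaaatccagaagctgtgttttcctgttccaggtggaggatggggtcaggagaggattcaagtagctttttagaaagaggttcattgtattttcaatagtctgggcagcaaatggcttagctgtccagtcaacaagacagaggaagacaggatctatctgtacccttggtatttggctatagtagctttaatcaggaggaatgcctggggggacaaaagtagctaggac

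Among the 93 members, a small set of genes led the level per kilobase. The genes that the naming rule leaves out are not ranked here, and of these Kcnk3 stood far above every member, at 5432 per kilobase, with Kcnk9 at 60.4 and Kcnj5 at 59.9. Ranked by mean normalised read count per kilobase of exon over the 20 libraries, the highest were Kcnk1 (294), a tandem-pore leak channel, Kcnn2 (282), a small-conductance calcium-activated channel, and Kcnh2 (227), the pore of the rapid delayed rectifier. Kcnab3 (177), a cytoplasmic partner of voltage-gated channels, Kcnk2 (142), a stretch-sensitive leak channel, and Kcnj8 (122), the pore of the vascular ATP-sensitive channel, followed. Kcne4 (85.4), a single-pass accessory subunit, Kcnk5 (82.1), a leak channel opened by alkaline pH, Kcnc4 (78.4), a fast-inactivating A-type channel, and Kcnq1 (57.4), a slow delayed rectifier, completed the first 10. These 10 genes made up 66.3% of the summed level per kilobase of all 93 members. Kcnk1 ranked 1 of the members in both male groups, but 10 in control females and 17 in females labelled KO. Control females had a mean count of 142 ± 60 (SD, n = 5), and control males one of 1586 ± 387 (n = 6).

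**Figure D1:**
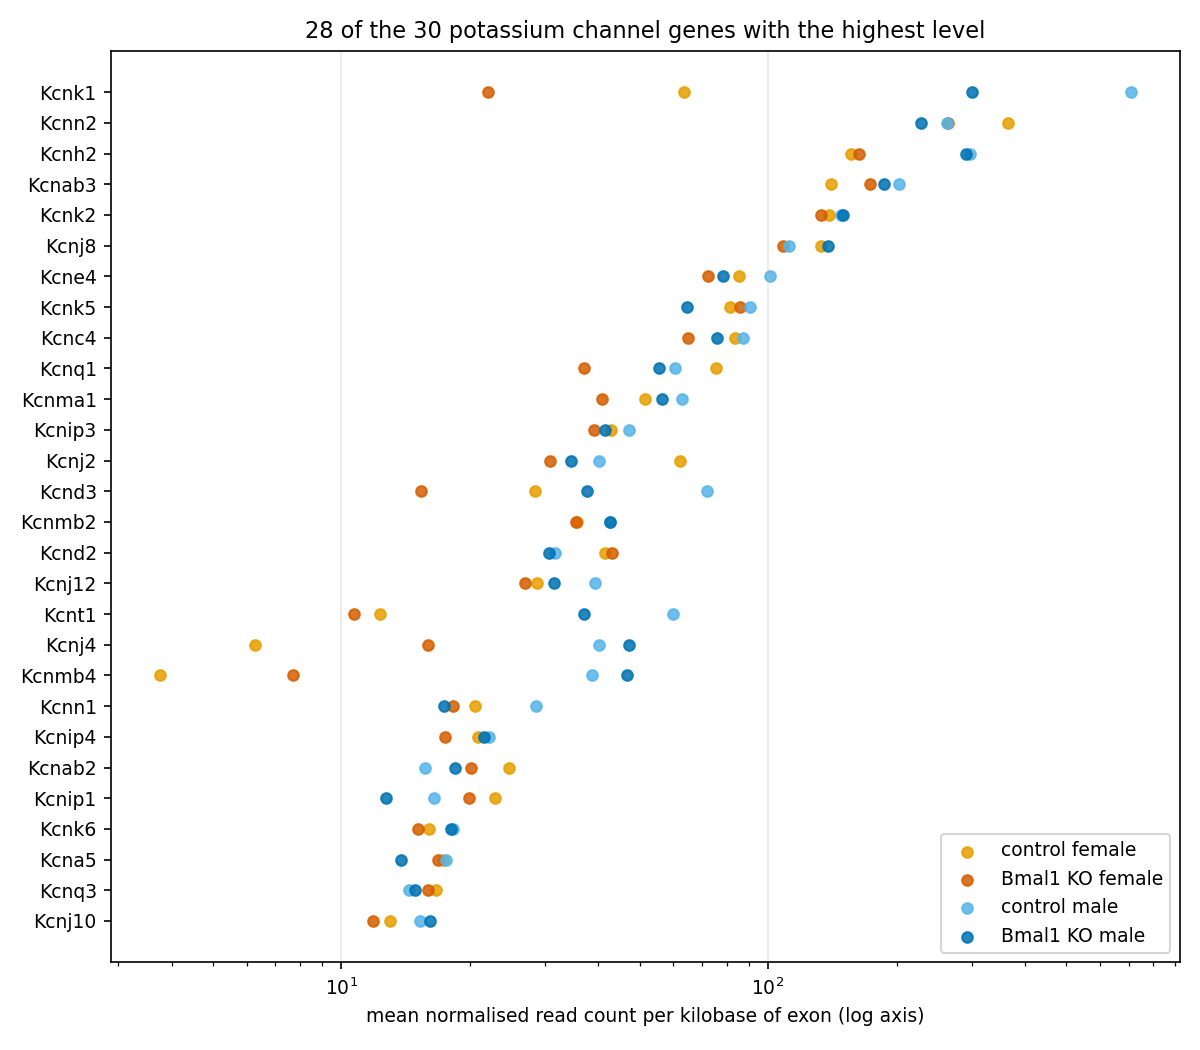
Mean normalised read count per kilobase of exon (log axis) of 28 of the 30 members with the highest level, with 1 point per group of 4 to 6 libraries. Kcnk1 spreads most widely of these genes across groups on this axis, and Kcnk2, Kcnj8 and Kcnip3 have their 4 group means close together.

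By raw normalised count, 24 members had a mean of at least 100, 34 a mean of 10 to 100, and 35 a mean under 10. The leak channels (Kcnk, 12 members) had the largest summed level per kilobase (546), of which Kcnk1, Kcnk2 and Kcnk5 made up nearly all, while Kcnk6 had 16.9 and the lowest members Kcnk10, Kcnk15 and Kcnk16 had under 3 reads in every library. The small- and intermediate-conductance calcium-activated channels (Kcnn, 4 members) summed to 322 per kilobase, with Kcnn1 at 21.8, Kcnn3 at 12.9 and Kcnn4, the intermediate-conductance channel of blood and epithelial cells, at 5.41. The inward rectifiers (Kcnj, 14 members) summed to 257, led by Kcnj8, Kcnj2 (42.2), Kcnj12 (32.0) and Kcnj4 (27.1). Kcnj1, known from the kidney tubule, was at 0.361 per kilobase.

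Among voltage-gated pores, the Kcnh subfamily (8 members) was Kcnh2 for the most part, with the next, Kcnh3, at 5.42 per kilobase. The slow delayed rectifiers (Kcnq, 5 members) all had a mean count of at least 10, with Kcnq3, a subunit of the M-current, at 15.4 per kilobase. The transient A-type pores of the Kcnd subfamily were Kcnd3 (40.1), Kcnd2 (36.8) and Kcnd1 (7.44), and their calcium-binding partners were Kcnip3 (42.9), Kcnip4 (20.6), Kcnip1 (18.2) and Kcnip2 (1.94). The mean of Kcnd3 covers uneven libraries, with normalised counts from 53.1 to 1147. The delayed rectifier Kcnb2 stood at 1.69, and the best expressed of the 8 shaker-type Kcna genes was Kcna5 at 16.6. Kcnma1, the pore of the big-conductance calcium-activated channel, had 53.2 per kilobase, and its accessory subunits Kcnmb2 and Kcnmb4 had 39.1 and 23.8. The sodium-activated channels Kcnt1 and Kcnt2 had 31.1 and 6.80, and the related Kcnu1, best known from sperm, had 6.17.

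The silent subunits were lower, with Kcng4 at 13.7 per kilobase, Kcnf1 at 9.17, Kcns3 at 4.34 and Kcnv2 at 0.166. Kcnrg, a soluble protein that is no channel pore, had 3.94. The accessory Kcne subunits below Kcne4 were Kcne3 (13.8), Kcne2 (1.81), Kcne1 (1.75) and Kcne1l (1.65).

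A small set of leak, rectifier and silent subunit genes moved with the genotype label in females. Kcnj4 and Kcnf1 were higher and Kcnk1 and Kcnj2 lower in the 5 females labelled KO than in the 5 control females. These are 4 of the 89 members tested, 2 in each direction, whereas 1.75% of all 26612 genes tested were called in this comparison (1.12% higher and 0.635% lower). The median difference of the 89 members was -0.07 on the log2 scale, against 0.00 over all genes. Here and below a call is a Benjamini-Hochberg adjusted p under 0.05 from limma over all genes tested, and differences are on the log2(value + 1) scale with their standard error (SE).

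Kcnj4 (chr15:79483714-79505241, minus strand, GRCm38) encodes a strong inward rectifier. Control females 1 to 5 read 11.4, 12.4, 11.7, 14.5 and 17.5, and females labelled KO 1 to 5 read 34.6, 39.4, 35.1, 31.4 and 31.3. Every library labelled KO was above every control, and the mean rose from 13.5 ± 2.53 (SD, n = 5) to 34.4 ± 3.32 (n = 5), by 1.30 ± 0.17 on the log2 scale (adjusted p = 0.000109). Males stood higher, with control males from 72.9 to 101 (median 86.4) and males labelled KO at 116, 120.5, 76.0 and 93.9, which overlap.

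Kcnf1 (chr12:17172100-17176888, minus strand) encodes a silent subunit that assembles with delayed rectifier pores. The 5 control females read 15.6, 10.3, 12.6, 8.15 and 4.12 and the 5 females labelled KO 96.2, 33.6, 61.2, 35.9 and 31.3. The groups did not overlap, and the first library labelled KO stood well above the other 4. The log2 difference was 2.21 ± 0.42 (adjusted p = 0.0054). In control males the lowest, median and highest values were 15.6, 50.7 and 112, and the 4 males labelled KO lay within that range.

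Kcnj2 (chr11:111066164-111076821, plus strand), the classical strong inward rectifier that sets resting voltage in muscle and heart, fell. It read 286, 474, 306, 234 and 389 in control females and 155, 178, 175, 157 and 175 in females labelled KO. The 5 libraries labelled KO were all below the lowest control, and the difference was -0.96 ± 0.17 (adjusted p = 0.00236). Control males read 157 to 270 (median 218.5) and males labelled KO 187, 170, 187 and 207.

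Kcnk1 (chr8:125995170-126030685, plus strand) fell as well. The 5 control females read 157, 90.7, 103, 121 and 240 and the 5 females labelled KO 43.9, 25.9, 55.8, 79.7 and 41.4. The highest library labelled KO lay below the lowest control, and the difference was -1.51 ± 0.28 (adjusted p = 0.00447). It was -1.28 with adjusted p = 0.0672 when only libraries of 2.4 to 3.7 months were used, which drops the 2 youngest control females and the 2 oldest control males.

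**Figure D2:**
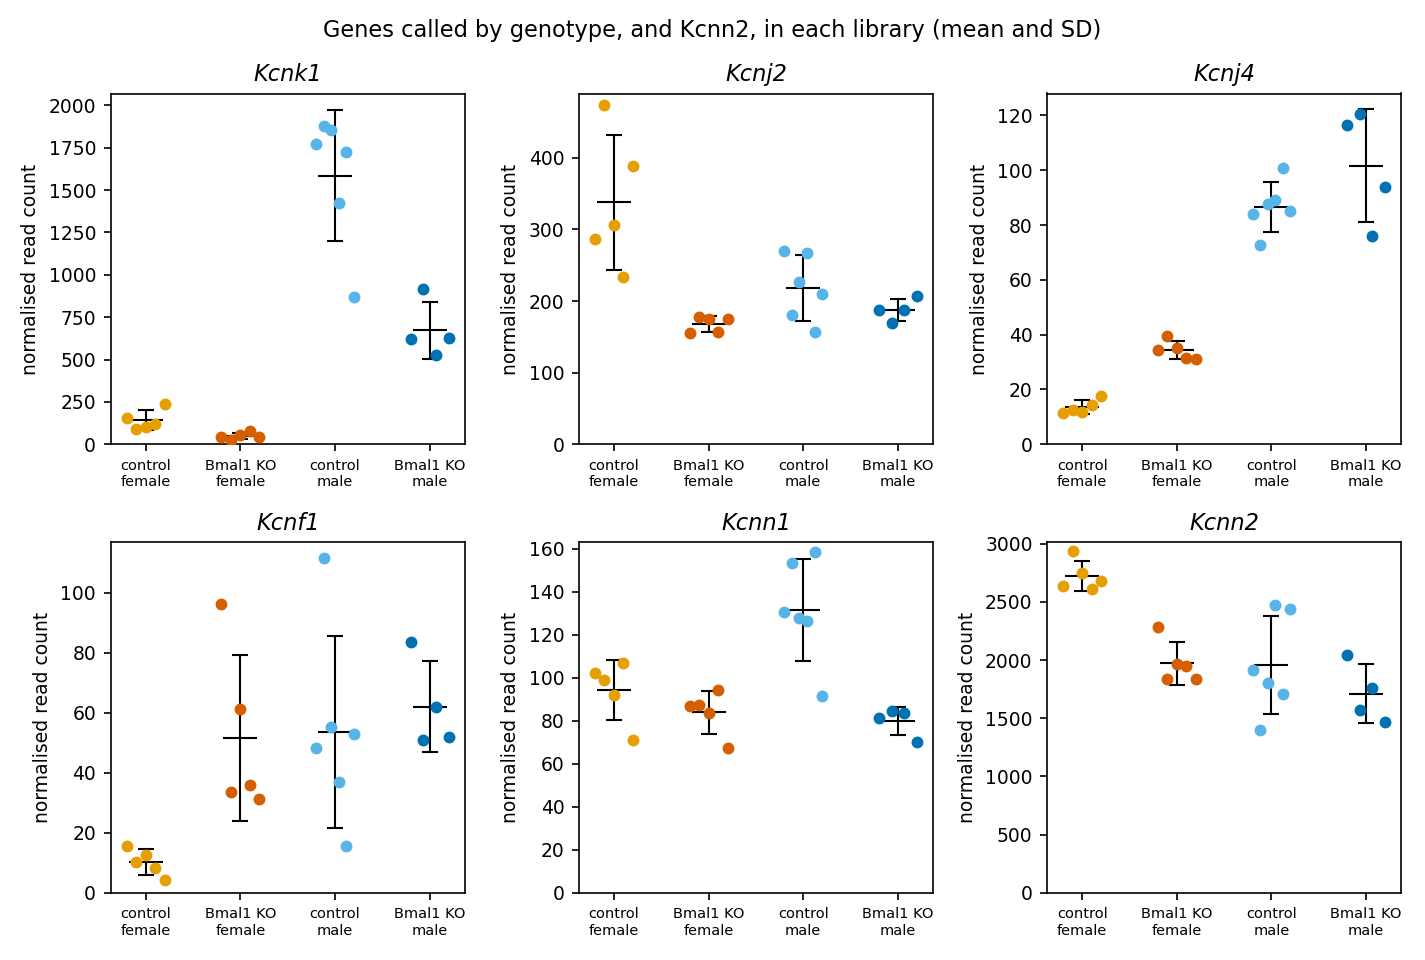
Normalised read count (linear axis from 0) of Kcnk1, Kcnj2, Kcnj4, Kcnf1, Kcnn1 and Kcnn2 in each of the 20 libraries, by group as labelled, with the mean and SD. In females the groups separate in Kcnk1, Kcnj2, Kcnj4, Kcnf1 and Kcnn2, and in males they separate in Kcnn1 and overlap in Kcnk1.

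Kcnn2 (chr18:45268860-45686024, plus strand), a channel that links calcium entry to hyperpolarisation after a spike, was the next by p-value. Control females read 2637, 2937, 2745, 2611 and 2683 and females labelled KO 2284, 1833, 1966, 1945 and 1837. The groups did not overlap, but the difference of -0.47 ± 0.12 missed the threshold in limma (adjusted p = 0.0602) and passed it in edgeR (adjusted p = 0.0443) and DESeq2 (adjusted p = 0.0137). In limma it also passed without female labelled KO 1, control male 2, 4 or 6, or male labelled KO 1 (adjusted p of 0.0238 to 0.0494). The same held in limma with only the 2 female groups (adjusted p = 0.00545), a replicate block (0.0499) and a filter of 10 in 4 libraries (0.0496). In total Kcnn2 passed in 10 of 31 alternatives, edgeR and DESeq2 included, and missed in the rest (adjusted p up to 0.141).

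Female groups did not overlap in 7 members, among them the 4 called genes, Kcnn2 and Kcnma1, and 3.25% of all genes tested showed this. Kcnma1 read 872 ± 76 (SD, n = 5) in controls and 692 ± 58.4 (n = 5) in females labelled KO, a difference of -0.33 ± 0.10 (adjusted p = 0.111).

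Cell type markers also differed between the female groups. In females, 2 of 8 glomerulosa markers were lower in the libraries labelled KO (Shh by -1.79 ± 0.29 and Wnt4 by -0.77 ± 0.17), and the list's summed count was 35471 to 43950 in controls and 28875 to 36760 in those labelled KO. Of 4 markers of the X-zone, a transient inner cortical layer, Cyp2f2 was lower (-2.82 ± 0.37) and Thrb higher (0.61 ± 0.11). Of 9 macrophage markers, Mrc1 was lower (-0.59 ± 0.11). The 6 red blood cell markers had a median difference of 0.69 and summed to 6139 to 17020 in controls and 9784 to 20782 in libraries labelled KO, with 0 called by limma, edgeR or DESeq2 and 3 at an unadjusted p under 0.05. The 10 lymphocyte markers had a median difference of 0.56 and summed to 159 to 462 and to 224 to 356, with 0 called by limma or edgeR, 2 by DESeq2 and 3 at an unadjusted p under 0.05. None of 15 chromaffin markers (4 at an unadjusted p under 0.05; 0 by edgeR and DESeq2) and none of 8 neuron markers (1 at an unadjusted p under 0.05; 0 by edgeR, 1 by DESeq2) were called by limma, with summed counts of 155495 to 207572 against 138811 to 179972, and of 774 to 866 against 654 to 789. The part of cell composition in the 4 calls was not tested, and in whole glands fewer cells of a type and less RNA per cell cannot be told apart.

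In males, 2 leak and calcium-activated channel genes were called, Kcnn1 and again Kcnk1, both lower. That is 2 of 89 members, with 1.33% of all genes called (0.763% higher and 0.567% lower), and the members' median difference was -0.12 against 0.00 over all genes. Kcnn1 was the single member whose male groups did not overlap, against 3.07% of all genes.

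Kcnn1 (chr8:70842049-70863258, minus strand), a small-conductance calcium-activated channel best known from neurons, had a lowest, median and highest value of 91.7, 129 and 158.5 in control males. The 4 males labelled KO read 81.3, 84.4, 83.6 and 70.2, all below the lowest control, and the difference was -0.69 ± 0.16 (adjusted p = 0.0256). Kcnk1 had 869, 1746 and 1878 as its lowest, median and highest value in control males, and 620, 916, 528 and 624.9 in males labelled KO. Control male 6 at 869 lay below male labelled KO 2 at 916, and the difference was -1.22 ± 0.29 (adjusted p = 0.0325). Without control male 6 it was -1.39 (adjusted p = 0.0084).

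Both male calls were close to the threshold. The call of Kcnk1 ended without control male 1, 2, 3, 4 or 5 or male labelled KO 1, 3 or 4 (adjusted p of 0.0527 to 0.122). That of Kcnn1 ended without control male 2, 3 or 5 or any of the 4 males labelled KO (adjusted p of 0.0525 to 0.108). With age as a covariate the adjusted p was 0.0562 for Kcnk1 and just over the threshold for Kcnn1, and with libraries of 2.4 to 3.7 months it was 0.133 and 0.117, so that neither was called.

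The next male values by p were those of Kcne3, Kcnn4 and Kcne4. Kcne3, an accessory subunit that holds Kcnq1 open, read 29.5, 34.3, 58.7 and 29.1 in males labelled KO and 7.64 to 32.3 (median 10.01) in control males, a difference of 1.36 ± 0.41 (adjusted p = 0.131; 0.0498 without control male 4). Kcnn4 read 9.56, 44.5, 21.7 and 57.2 against 6.41 to 14.4 in control males. Its first KO-labelled library lay among the controls, and the difference of 1.31 ± 0.41 missed the threshold in limma (adjusted p = 0.155) but passed it in edgeR (adjusted p = 0.0405) and DESeq2 (adjusted p = 0.00843), and in limma without male labelled KO 1 (1.79, adjusted p = 0.0226). Kcne4 differed by -0.39 ± 0.15 (adjusted p = 0.281). Among male markers, 1 of 8 glomerulosa markers, Shh (-1.53 ± 0.30), was lower. Of 10 fasciculata and shared steroidogenic markers, 2 were lower, Cyp11a1 (-0.71 ± 0.16) and Star (-0.69 ± 0.15). No other marker of these lists was called, and the list medians were -0.00095 and -0.0049. The neuron markers summed to 828 to 1888 in control males, with control male 6 the lowest, and to 779 to 1274 in males labelled KO. Whether these move the channel values was not tested.

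**Figure D3:**
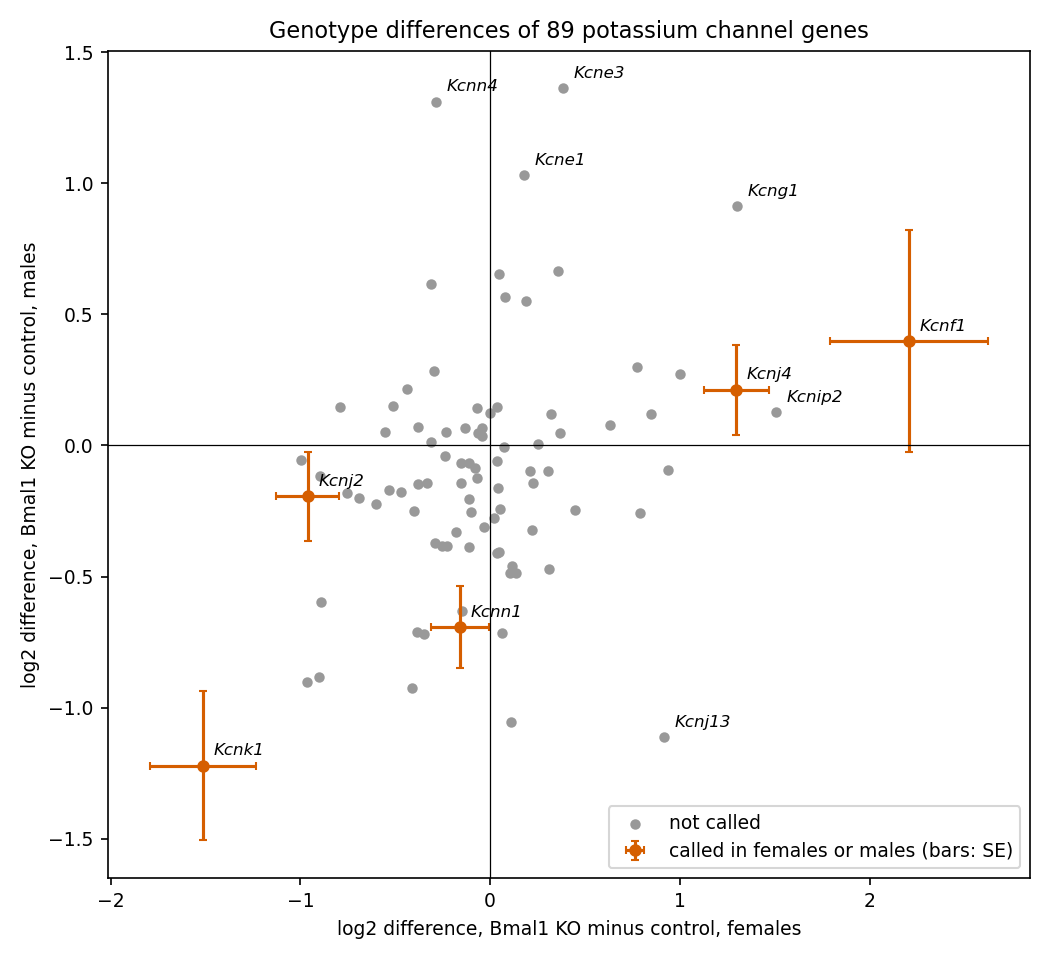
Log2 difference, KO-labelled minus control, of the 89 tested members in females (x) and males (y), with SE bars on the 5 genes called in either sex and names on some others. Kcnk1 lies in the lower left, at -1.51 and -1.22, and Kcnf1 and Kcnj4 are displaced to the right, along the female axis.

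The difference between the female and male effects was tested as an interaction. No member was called by limma or by edgeR, 8 had an unadjusted p under 0.05 in limma, and DESeq2 called Kcnj4 alone (1.11, adjusted p = 0.0362), with 0.0301% of all genes called in limma. The 4 members of smallest p were Kcnj4 (1.09 ± 0.24, adjusted p = 0.179), Kcnj2 (-0.77 ± 0.24, adjusted p = 0.446), Kcnf1 (1.81 ± 0.60, adjusted p = 0.525) and Kcnn4 (-1.60 ± 0.58, adjusted p = 0.606). The calls of Kcnj4, Kcnj2 and Kcnf1 in females and of Kcnn1 in males were therefore not shown by limma to be specific to a sex. For Kcnk1 the interaction was -0.29 ± 0.40 (adjusted p = 0.982).

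More members were called by sex than by the genotype label. In controls, 23 of 89 members were called by sex, 5 higher and 18 lower in females, whereas 26.4% of all genes tested were called, 13.5% higher and 12.9% lower. The members' share called was thus close to that of all genes. Their median difference, female minus male, was -0.26, against -0.05 over all genes. With age as a covariate 13 of 89 were called (3 higher and 10 lower), beside 3746 of all 26612 genes, against 7023 without it. With libraries of 2.4 to 3.7 months 12 of 87 were called (2 higher and 10 lower), beside 3673 of 25980 genes. The calls thus fell among members and among all genes alike. The age window also drops the 2 youngest control females and the 2 oldest control males, so age and fewer libraries cannot be told apart there.

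**Figure D4:**
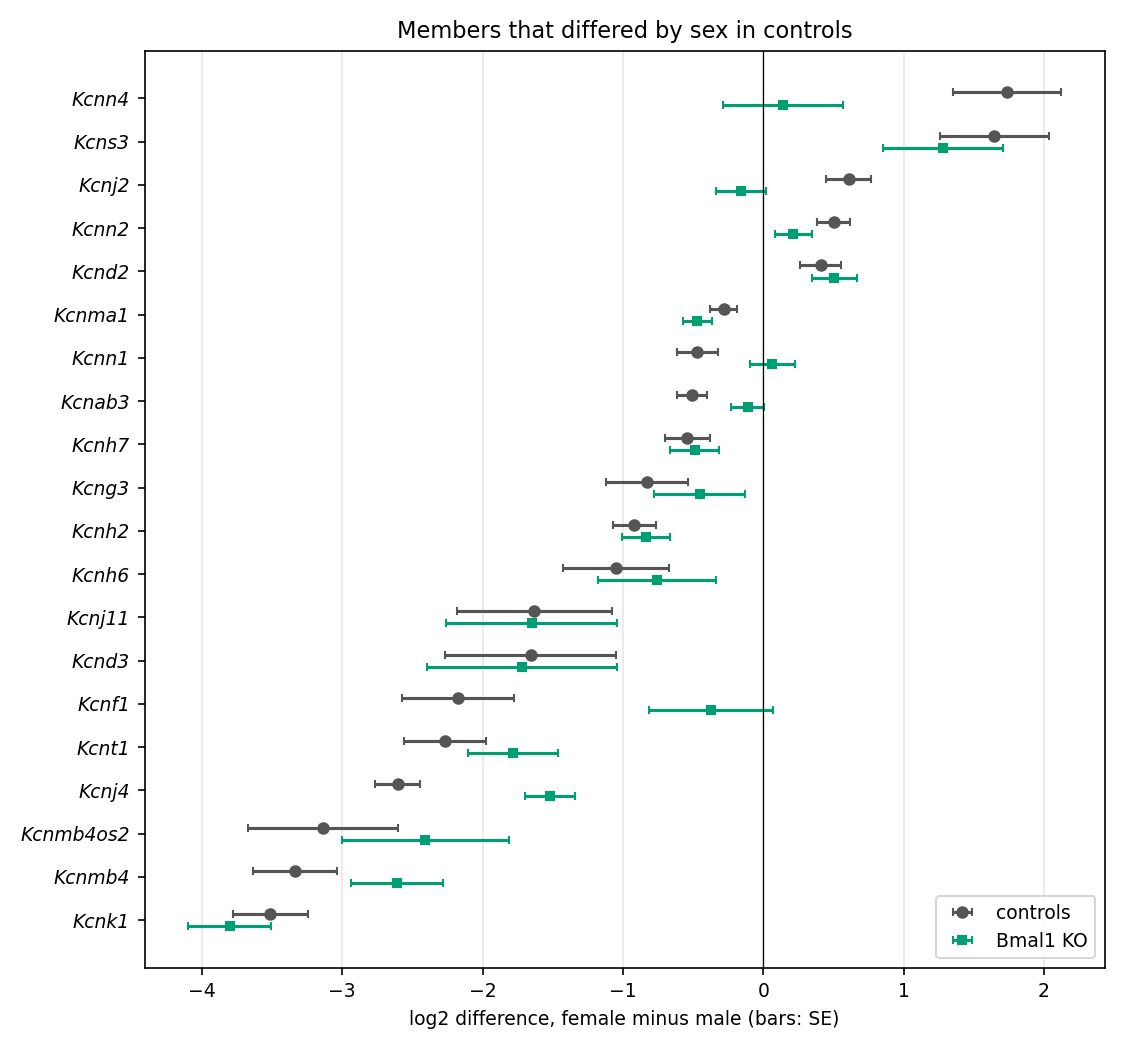
Log2 difference, female minus male, in controls (circles) and in libraries labelled KO (squares), with SE bars, for 20 of the 23 members called by sex in controls. Kcnk1 is lowest in both, at -3.51 and -3.80, and Kcns3 and Kcnd2 lie above 0 in both.

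Leak and inward rectifier pores were among the genes with the widest gaps. Kcnk1 differed by -3.51 ± 0.27 (adjusted p = 4.4e-09), with a mean 11.1 times higher in control males, and no control female (at most 240) reached the lowest control male (869). Kcnj4 differed by -2.61 ± 0.16 (adjusted p = 2.81e-10), and its highest control female (17.5) lay under its lowest control male (72.9). Kcnj11, the pore of the ATP-sensitive channel of endocrine cells, differed by -1.63 ± 0.55 from low counts (5.25 ± 3.42, n = 5, against 19.7 ± 13.8, n = 6), and lost its call in 8 alternatives. Kcnj2 went the other way, at 0.61 ± 0.16 (adjusted p = 0.00667), with overlapping groups.

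Among big-conductance and sodium-activated channels, Kcnmb4, a subunit that slows the Kcnma1 pore, differed by -3.34 ± 0.30 (adjusted p = 4.61e-08). Its control females read 15.6, 7.21, 6.30, 19.9 and 13.4, and its control males 85.8 to 191 (median 124), with no overlap. Kcnmb4os2, on the opposite strand and overlapping an exon of Kcnmb4, differed by -3.14 ± 0.54, from 0.593 ± 0.544 to 15.9 ± 10.1. The strand setting of the counting is not given, so reads of the pair may not be told apart. Kcnma1 itself differed by -0.28 ± 0.10 (adjusted p = 0.0329), a call that ended in 7 of 31 alternatives. Kcnt1 read 124, 76.2, 204, 102 and 77.2 in control females and 278 to 800.5 (median 601) in control males, a difference of -2.27 ± 0.29 (adjusted p = 5.92e-06).

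Of the voltage-gated pores, Kcnh2 read 772, 614, 919, 886 and 592 in control females and 893.5 to 1792 (median 1497) in control males. Control male 6, the lowest, lay below control female 3, and the difference was -0.92 ± 0.16 (adjusted p = 0.000141). The silent Kcnf1 differed by -2.18 ± 0.40. Kcnd3, a transient A-type pore, differed by -1.66 ± 0.61, but its control females fell into low and high values (436, 67.0, 57.6, 374 and 427) and the call ended in 21 of 31 alternatives. Its recovered reads were nearly equal in libraries of all groups. They were 419, 413 and 415 in control females 1, 4 and 5, and 414 in female labelled KO 4. In control males 2 and 4 they were 423 and 414, and in males labelled KO 2 to 4 they were 418, 419 and 421. The other libraries held 59 to 1252 reads. Of these, control males 3, 5 and 6 held 842, 1252 and 831, which are close to multiples of the recurring count. Steps were seen in other members too. Kcng2 held 53 reads in control female 1 and female labelled KO 1, and 105 and 106 in females labelled KO 2 and 5. Kcna4 held 26 in control females 1 and 4 and 52 in control males 1 and 5. The source of these recurring counts was not tested, so the level and differences of Kcnd3, Kcng2 and Kcna4 are uncertain. Kcnh6, a relative of Kcnh2, differed by -1.05 ± 0.38, and its call ended in 17.

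Also lower in control females were Kcnab3 (-0.51 ± 0.11), Kcng3, Kcnh7 and Kcnn1, with differences between -0.83 and -0.47, and the calls of Kcng3, Kcnn1 and Kcnh7 ended in 10, 5 and 2 of 31 alternatives. Higher in control females were Kcnn4, Kcns3, Kcnj2, Kcnn2 and Kcnd2. Kcnn4 read 34.3, 14.4, 51.3, 43.5 and 60.7 in control females and 6.41 to 14.4 in control males, a difference of 1.74 ± 0.39 (adjusted p = 0.00197), with the lowest female close to the highest male. Kcns3, a silent subunit, read 20.8, 16.5, 8.10, 17.2 and 38.1 against 1.91 to 8.89 (median 5.84), a difference of 1.65 ± 0.39 (adjusted p = 0.00312), with the lowest female inside the male range. Kcnn2 differed by 0.50 ± 0.12 (adjusted p = 0.00324) and Kcnd2 by 0.41 ± 0.14 (adjusted p = 0.041), both without overlap. The call of Kcnd2 ended in 12 of 31 alternatives (adjusted p up to 0.241), and those of Kcnn2 and Kcnn4 in 2 each, with age as a covariate and with libraries of 2.4 to 3.7 months.

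**Figure D5:**
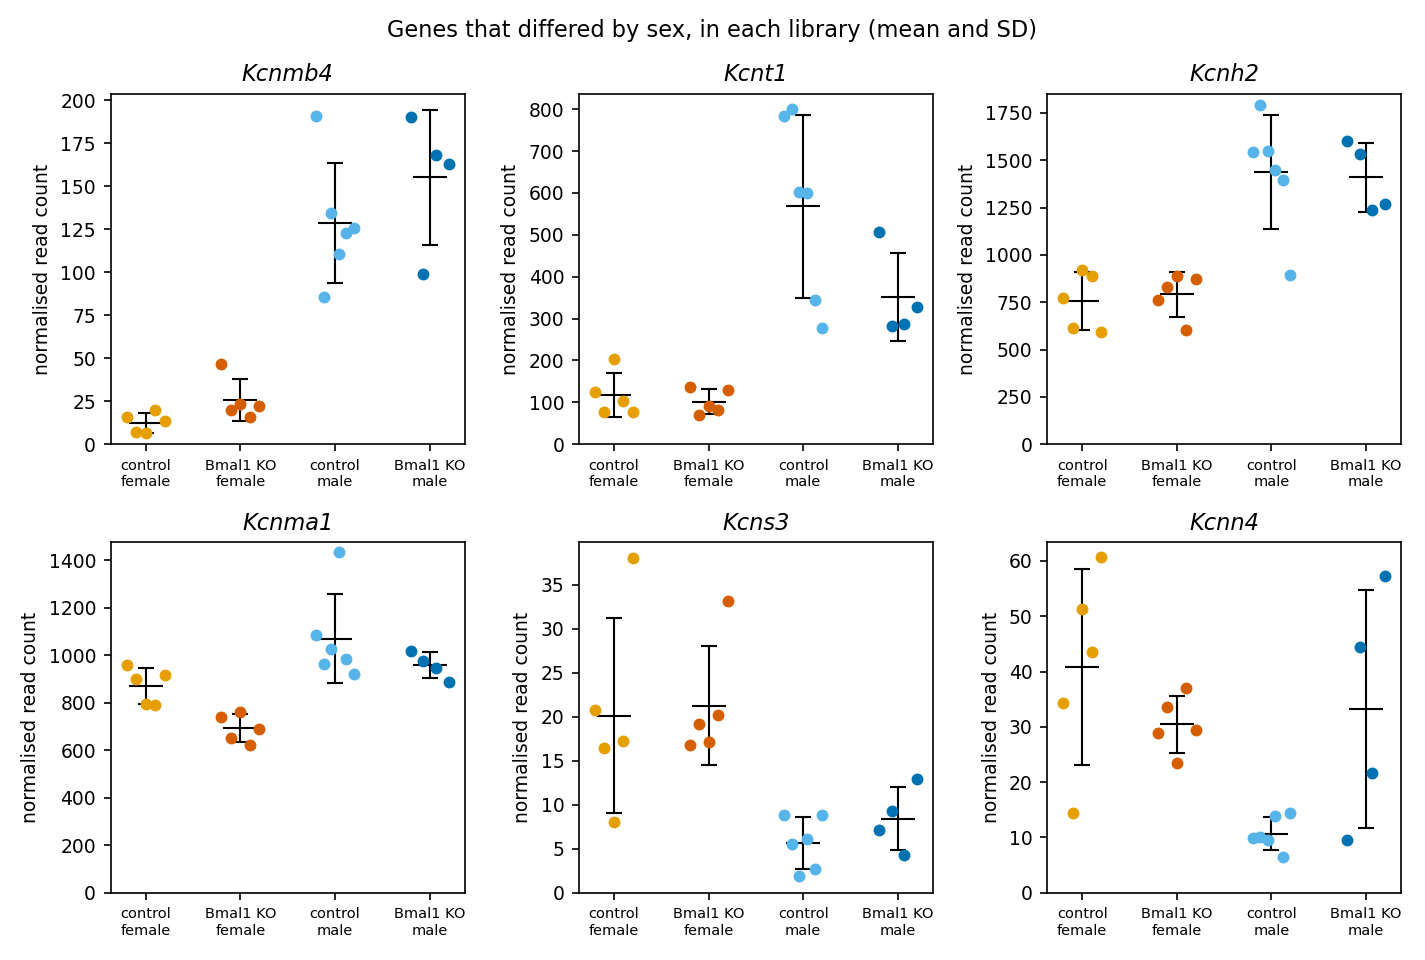
Normalised read count (linear axis from 0) of Kcnmb4, Kcnt1, Kcnh2, Kcnma1, Kcns3 and Kcnn4 in each library, by group as labelled, with the mean and SD. The means of the first 4 are higher in control males than in control females, those of Kcns3 and Kcnn4 are lower, and Kcnn4 spreads widely in the males labelled KO.

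In libraries labelled KO, 13 of 89 members were called by sex, 2 higher and 11 lower in females, with 22.8% of all genes called (12.1% higher and 10.6% lower). The share called among members was below that of all genes. Called in both genotypes, and in the same direction each time, were 10 members, which are 43.5% of the controls' list and 76.9% of the other. Over all genes tested, 4320 were called in both, which are 61.5% of the 7023 called in controls and 71.3% of the 6055 called in libraries labelled KO. Among the 10 members were Kcnd2, Kcnh2, Kcnj4, Kcnk1, Kcnma1, Kcnmb4, Kcnmb4os2, Kcns3 and Kcnt1. In libraries labelled KO the calls of Kcnd2 and Kcns3 ended in 5 and 8 of 31 alternatives. Kcnk1 differed by -3.80 ± 0.30, Kcnmb4 by -2.61 ± 0.33, Kcnt1 by -1.78 ± 0.32 and Kcnj4 by -1.52 ± 0.18.

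Called only by the second comparison were Kcne1 (-2.38 ± 0.70), Kcng4 (-0.80 ± 0.28) and Kcnh4 (-1.33 ± 0.47), and Kcng4 and Kcnh4 lost their calls in 20 of 31 and 18 of 29 alternatives. Kcne1 rested on few recovered reads, 0 to 6 in each female library labelled KO and 12 to 15 in each male one. In every library, controls included, its count was 0 or a multiple of 3. The source of this step was not tested, so the difference of Kcne1 is uncertain. The call of Kcne1 ended in 1 of 31 alternatives, with pseudocount 0.1 (adjusted p = 0.0587), but no alternative removes the step. Kcnf1 differed by -0.37 ± 0.44, Kcnj2 by -0.16 ± 0.18 and Kcnn4 by 0.14 ± 0.43 in libraries labelled KO, and none of these passed the test there. Whether sex differences changed with genotype is the interaction tested above, and both sex comparisons and both genotype comparisons share groups of libraries. Groups did not overlap in 11 members in controls and 14 in libraries labelled KO, against 13.9% and 20.7% of all genes.

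Markers that differed by sex are given beside these counts. The 4 X-zone markers were all higher in control females, with summed counts of 37664 to 137555 against 599 to 1247 in control males. Of 8 neuron markers, Tubb3 (-1.73 ± 0.26) and Stmn2 (-0.50 ± 0.15) were lower in control females, with summed counts of 774 to 866 against 828 to 1888, and of 10 Schwann and sustentacular markers, Gfap (-1.45 ± 0.24) and Fabp7 (-1.28 ± 0.33) were. Of 10 fasciculata and shared steroidogenic markers 5 were higher and 1 lower in control females, with summed counts of 1202141 to 1576107 against 914757 to 1423167. Of 8 glomerulosa markers 2 were higher and 2 lower, of 8 endothelial markers 2 were lower, of 9 macrophage markers 2 were higher, 1 lymphocyte and 1 adipocyte marker were higher, and 1 skeletal muscle marker was lower. No chromaffin marker was called by limma in controls (2 at an unadjusted p under 0.05; 1 by edgeR and 1 by DESeq2), with summed counts of 155495 to 207572 against 117987 to 275651. Control male 6, lowest of its group in the neuron sum, was also the lowest control male for Kcnk1, Kcnt1, Kcnh2 and Kcnn1. It was the highest control male for Arntl (1092, others 365 to 664) and Cry1 (213, others 122 to 169). It was the lowest for Nr1d1, another clock gene (1091, others 1644 to 2381). Its fasciculata and shared steroidogenic sum was the highest (1423167, others 914757 to 1052297), and its chromaffin and Schwann sums were not the lowest. Without control male 6, 21 of 88 members were called by sex in controls, against 23 of 89 with it. Over all genes 7181 of 26272 were called without it, against 7023 of 26612. The part of cell composition was not tested.

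Other genes of membrane potential and potassium transport, came from lists of channel partners, transporters and other channels. None of 15 tested channel partners, 5 potassium-chloride cotransport genes, 18 voltage-gated calcium channel genes and 11 tested voltage-gated sodium channel genes were called by limma for genotype in either sex. At an unadjusted p under 0.05 there were 2, 2, 3 and 1 of these in females and 2, 1, 2 and 1 in males. edgeR called 1 cotransport gene in females, and DESeq2 called 1 cotransport gene in each sex and 1 partner and 1 calcium channel gene in males. The list of 14 sodium-potassium pump genes did hold genotype calls, with 1 gene lower by limma in each sex. In that list, 5 genes in females and 3 in males had an unadjusted p under 0.05 in limma. There edgeR called 1 in each sex, and DESeq2 called 2 in females and 1 in males.

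By sex in controls, all 5 cotransport genes were lower in females, including Slc12a5 (-0.90 ± 0.19), the neuronal potassium-chloride cotransporter, and Slc12a7 (-0.50 ± 0.09). Of 18 calcium channel genes 4 were lower, with Cacnb4 (-2.59 ± 0.92) and Cacnb1 (-0.70 ± 0.14), both accessory subunits, at the head. Of the sodium channel genes, Scn9a (-0.97 ± 0.24) was lower. Of the pump list, Atp1a4 (2.06 ± 0.35), a catalytic subunit known from sperm, was higher in females and Atp4a (-2.83 ± 0.20), the proton-potassium pump subunit of stomach, and Atp1b2 (-0.48 ± 0.13) were lower. Of the channel partners, Tmem38b (0.91 ± 0.17), a cation channel of the endoplasmic reticulum, was higher, and Dpp10 (-1.16 ± 0.18), a partner of the Kcnd pores, and Tmem38a (-0.39 ± 0.12) were lower.

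Exons of 27 members overlapped a gene on the opposite strand in GENCODE M21. Of the 26 members called in any comparison, 11 were among them, including Kcnab3, Kcnd3, Kcnh7, Kcnk1, Kcnma1, Kcnmb4, Kcnmb4os2, Kcnn1 and Kcnn2. Their counts may include reads of the partner gene, and Kcnj2, Kcnj4 and Kcnf1 had no such overlap.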

How the data were processed

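RNA of whole adrenal glands was sequenced in 20 libraries. The submitters' processing notes list DESeq2, featureCounts, Salmon, FastQC and MultiQC, and the builds mm10 and GRCm38. No source used here gives their roles and versions, the aligner or the strand setting. The deposited signal values were whole multiples of 1 step per library (100% within 0.001 of a read), so the signal is a read count divided by a size factor, and 0 columns had no sample. Gene positions and exon lengths come from GENCODE M21, and promoters from RefSeq.

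limma-trend (limma 3.58.1, R 4.3.3) was run on log2(value + 1) for the 26612 genes that reached 1 in 4 or more libraries, with 4 group means and 1 spread over 20 libraries. The log2 scale understates changes of low genes. Adjusted p is Benjamini-Hochberg over all genes, called under 0.05, and comes from limma where no tool is given. The script was tested on simulated data. The design also named edgeR 4.0.16 on recovered reads and DESeq2 1.42.0. Over all genes, edgeR called 518 for genotype in females and 401 in males, 10 as an interaction, and 6923 and 6099 for sex in control and KO-labelled libraries. Other alternatives were pseudocounts 0.1 and 5, other filters, TMM scaling, age as a covariate, libraries of 2.4 to 3.7 months, a replicate block, only the groups compared, and leaving out each library.

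Members and lists were chosen with earlier results of these data known. Named genes are all members called by genotype or interaction, the 5 of smallest p there, up to 10 per direction by sex in controls with a mean of at least 10 in a group, the 10 highest per kilobase and each subfamily's highest. Genes named outside this rule were chosen after their values were seen. Some results are not reported here.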

Additional observations from a re-analysis of the deposited data

Results flagged for a closer look

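A library far from the rest of its group was found in 7 of 120 checks (30 members, 4 groups), and chance alone flags about 1 in 20. In females labelled KO, library 4 read 465 for Kcnd3, with the others at 53.1 to 92.0, library 1 read 46.7 for Kcnmb4 (others 15.7 to 23.4), and library 5 read 33.1 for Kcns3 (others 16.8 to 20.2). For Kcnd3, the 414 recovered reads of library 4 were close to the counts of several libraries in each other group. In males labelled KO, library 3 read 71.7 for Kcng4 (others 38.9 to 43.2). In control males, library 2 read 50.7 for Kcnh6 (others 13.9 to 27.7) and library 4 read 1436 for Kcnma1 (others 921 to 1083). In control females, library 5 read 494 for Kcnk5 (others 197 to 251).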

How the results depend on the processing

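Of 42 member calls, 22 held in every alternative fit, among them Kcnf1, Kcnj2 and Kcnj4 by genotype in females and 11 of 23 by sex in controls, and no direction reversed in the genes followed. DESeq2 called 7 members in females and 1 for the interaction. In males, 0 were called with age as a covariate, 0 with libraries of 2.4 to 3.7 months and 1 with only the groups compared. By sex in controls, 13 were called with age as a covariate and 12 with libraries of 2.4 to 3.7 months. Leaving out 1 library gave 4 to 6 calls in females, 0 to 2 in males, 0 for the interaction, 17 to 24 by sex in controls and 9 to 15 by sex in libraries labelled KO. Over 27 same-numbered pairs, deviations correlated between -0.08 and 0.14, with 2 over 0.1. Those 2 were control and KO-labelled females of number 1 (0.14) and number 4 (0.11). Pairs with different numbers were not compared, so these values cannot decide whether the numbers pair the samples. With the replicate block, 5, 2, 0, 21 and 13 members were called in the same order. Over all genes, DESeq2 called 901 against 467 in females, 732 against 354 in males and 82 against 8 for the interaction. Libraries of 2.4 to 3.7 months gave 223 in females, 187 in males, 0 for the interaction and 3673 against 7023 by sex in controls, age as a covariate gave 3746 there and 0 for the interaction, and only the groups compared gave 219 in males. Members under a mean of 10 (35 of 93) rest on few reads, which limits what can be detected for them.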
